A study of Mus musculus with 6 samples.

Results

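The E2F and DP transcription factors were examined in satellite cells, the resident stem cells of skeletal muscle after injury, by RNA sequencing of Smart-Seq2 libraries. The members are the 10 genes E2f1 to E2f8, Tfdp1 and Tfdp2, found by their symbols among the 45527 named genes of the count table. Each of them passed the filter on low counts, E2f7 and E2f8 through the control libraries alone. The cells came from lower hindlimb muscle and were sorted on a yellow fluorescent reporter 24 h after an injection of 30 µl of cardiotoxin, a snake venom toxin that kills muscle fibres. Every mouse carried Pax7creER, a Cre recombinase that works only in Pax7-expressing cells and only after tamoxifen, and R26R-YFP, the reporter that Cre switches on. There were 3 control libraries of genotype Paxbp1flox/+ and 3 libraries labelled Paxbp1-iKO (inducible knockout) of genotype Paxbp1flox/flox. The controls thus also carried the recombinase and 1 floxed allele of Paxbp1, the gene of a protein that binds Pax7. The design text speaks of 3 pairs of control and iKO mice, but it does not say what a pair shared or which library came from which mouse, and age is not stated. The p-values therefore cover the spread among libraries, and the groups were compared without pairing.

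E2F proteins bind the promoters of genes needed for DNA synthesis. E2F1, E2F2 and E2F3 are activators, held silent by the retinoblastoma protein until cyclin-dependent kinases phosphorylate it. E2F4 and E2F5 are repressors that act with the pocket proteins p107 and p130 in resting cells, E2F6 represses with Polycomb proteins, and the atypical E2F7 and E2F8 shut targets down late in S phase. All but E2F7 and E2F8 bind DNA as pairs with a DP protein, DP1 from Tfdp1 or DP2 from Tfdp2. E2f1, E2f2, E2f7 and E2f8 are themselves known E2F targets, so the family feeds back on itself when cells leave rest.

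The libraries held 23327359 to 28050748 counts. Paxbp1 itself was higher in the libraries labelled iKO, at 110.2 ± 15.4 CPM against 68.6 ± 6.81 CPM in controls (SD, n = 3 each; CPM, counts scaled by the size of the library, is the unit throughout unless named otherwise). That goes against the label of a knockout. The floxed exons are not known here and the count covers the whole gene, so a deletion could not be read from it, and the groups are called by their labels throughout. The 8 markers of muscle stem cells summed to 5918 to 6153 CPM in controls and to 6100.2 to 6743 CPM under the iKO label, with 4 called higher and 3 lower. The sum hides opposite shifts. Pax7 was at 11.3 ± 2.14 CPM in controls and 49.5 ± 1.70 CPM under the iKO label, and Chodl at 162 ± 17.8 and 925 ± 163 CPM. Cdh15 and Vcam1 were also called higher. Myf5, Itga7 and Des were called lower, and Myod1 was not called (edgeR, adjusted p = 0.0511). Among markers of leukocytes, endothelium and fibro-adipogenic cells, 0 of 18 tested genes were called by edgeR, and the summed level of each list overlapped between the groups. The leukocyte markers summed to 119 to 187 CPM in controls and to 103 to 200.4 CPM under the iKO label, with Cd3e and Ly6g near 0. The endothelial markers summed to 155, 81.0 and 49.2 CPM in controls 1 to 3 and to 78.6 to 94.7 CPM under the iKO label. Those of fibro-adipogenic cells summed to 462, 321 and 241 CPM in controls 1 to 3 and to 203 to 346 CPM under the iKO label. The 6 markers of muscle fibres summed to 15.1 to 65.9 CPM in controls and to 11.9 to 17.2 CPM under the iKO label, and 1 of them, the actin gene Acta1, was called lower. Control 1 was the highest control for the endothelial, fibro-adipogenic and muscle fibre markers. Their part in the results was not tested.

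Of the 10 members, 6 were lower in the iKO-labelled libraries, 1 was higher and 3 did not pass the test. E2f7 and E2f8 showed the lowest log2 fold changes, at -4.91 and -4.25, followed by E2f1, E2f3, Tfdp1 and E2f4, while Tfdp2 was higher. As E2f7 and E2f8 passed the count filter through the controls alone, their difference could only be a lower one. E2f2, E2f5 and E2f6 were not called. Over all 16252 genes tested, 12.3% were called lower, 8.15% higher and 20.4% in either direction, at a Benjamini-Hochberg adjusted p under 0.05 from edgeR's quasi-likelihood test. The median log2 fold change was -1.28 over the members and 0.02 over all genes tested. The groups did not overlap for 8 members, 7 lower and 1 higher, where 20.9% of all tested genes lay apart in the lower and 18.9% in the higher direction. In bulk RNA, fewer cells that express a gene and less of its RNA per cell cannot be told apart. Fold changes below are log2 of iKO-labelled against control ± SE.

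**Figure D1:**
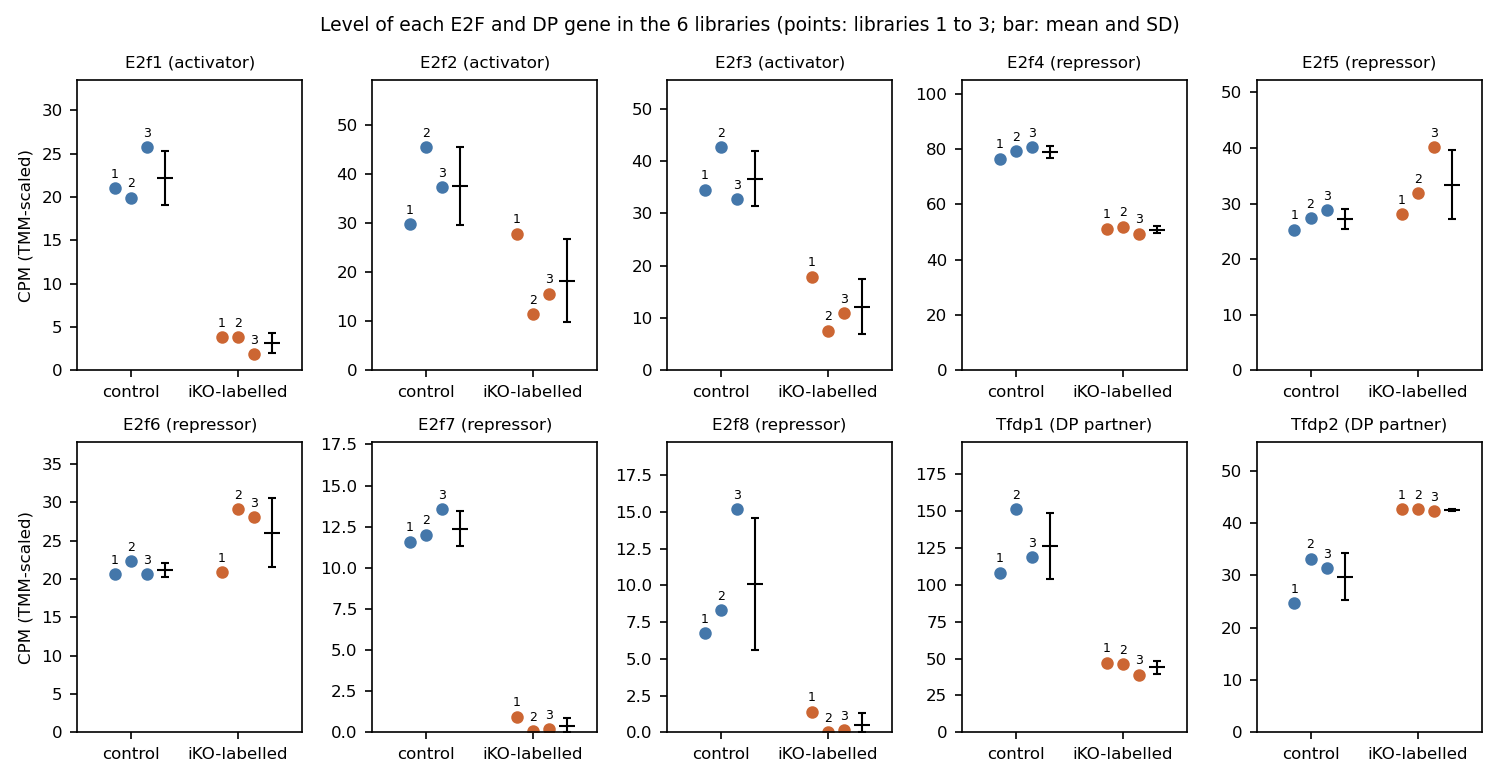
Level of each member in CPM (vertical axis, from 0, scaled per panel) in the 3 control and 3 iKO-labelled libraries; points are libraries with their replicate number, and the black bar is the mean with its SD, cut at 0. E2f1, E2f7, E2f8 and Tfdp1 stand far apart between the groups, E2f5 and E2f6 overlap, and Tfdp2 lies higher in the iKO-labelled libraries.

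As several members fell together, the DNA just before their starts was searched for the E2F recognition sequence. RefSeq promoter windows on GRCm38.p6 matched 8 of the 10 members by symbol, with 12 windows in all, each read over the 250 bases before the annotated start. E2f4, which was called lower, and E2f5 had no window and were not searched. The classical E2F site was searched on either strand as TTTCCCGC, TTTCGCGC, TTTGCCGC or TTTGGCGC, and in a looser form as its core, the same letters without the first T. Of the 32851 windows of all genes, 7.89% held at least 1 core, and 1.86% the whole site, a background that does not allow for base composition. The windows shown are those of the 4 called members that hold a match, with E2f6, which was not called and holds none, for comparison. Capitals mark the cores, and the sequence runs 5′ to 3′ on the gene's strand up to the base before the start.
E2f7, chr10:110745189-110745438, plus strand: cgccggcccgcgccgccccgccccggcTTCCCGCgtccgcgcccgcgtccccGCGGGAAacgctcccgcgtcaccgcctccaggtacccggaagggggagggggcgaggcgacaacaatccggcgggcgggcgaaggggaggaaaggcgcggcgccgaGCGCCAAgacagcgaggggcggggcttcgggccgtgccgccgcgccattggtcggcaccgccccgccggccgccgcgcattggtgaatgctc
E2f8, chr7:48881597-48881846, minus strand: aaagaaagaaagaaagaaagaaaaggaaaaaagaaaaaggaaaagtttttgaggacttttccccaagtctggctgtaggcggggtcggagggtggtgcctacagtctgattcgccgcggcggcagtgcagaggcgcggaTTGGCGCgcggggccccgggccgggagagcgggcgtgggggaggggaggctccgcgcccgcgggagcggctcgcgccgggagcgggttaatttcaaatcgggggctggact
E2f3, chr13:29986064-29986313, minus strand: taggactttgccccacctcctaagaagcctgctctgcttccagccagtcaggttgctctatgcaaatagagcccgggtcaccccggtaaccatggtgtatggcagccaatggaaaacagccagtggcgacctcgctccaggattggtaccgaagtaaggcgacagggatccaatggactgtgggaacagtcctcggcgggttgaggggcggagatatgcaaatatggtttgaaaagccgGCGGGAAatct
Tfdp1, chr8:13338501-13338750, plus strand: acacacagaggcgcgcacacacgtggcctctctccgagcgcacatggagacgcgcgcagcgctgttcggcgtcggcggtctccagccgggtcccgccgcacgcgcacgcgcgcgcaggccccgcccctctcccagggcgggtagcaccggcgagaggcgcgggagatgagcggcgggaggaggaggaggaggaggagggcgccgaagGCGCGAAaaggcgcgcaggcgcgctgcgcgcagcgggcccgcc
E2f6, chr12:16810715-16810964, plus strand: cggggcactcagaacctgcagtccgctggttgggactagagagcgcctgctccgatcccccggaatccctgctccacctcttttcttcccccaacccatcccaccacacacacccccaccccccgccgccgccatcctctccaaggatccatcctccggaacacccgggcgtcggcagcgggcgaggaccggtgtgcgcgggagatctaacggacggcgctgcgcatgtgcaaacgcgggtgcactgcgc

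The window of E2f7 held 3 cores, at 223 to 217, 198 to 192 and 92 to 86 bases before the start. E2f8 held 1 at 111 to 105 bases, E2f3 1 at 11 to 5 bases and Tfdp1 1 at 43 to 37 bases. The whole site stood in the windows of E2f7, E2f3 and Tfdp1. The second window of Tfdp1 overlaps the first and holds the same match, while the second window of E2f3, at an inner start 1672 bases downstream, holds none. Neither window of E2f2 or Tfdp2 held a match, and both of Tfdp2 and 1 of E2f2 lie at inner starts, 8388 bases or more into the gene. The other window of E2f2 ends at position 136172273, before the GENCODE M21 gene start at 136172394, so the bases between were not searched. The window of E2f1 begins from a RefSeq start that lies 466 bases inside the GENCODE M21 gene and overlaps its coding exon, so it does not show the region before that gene's start. A match is a stretch of letters, and binding was not measured.

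E2f1, the founding member of the family, lies on chromosome 2 (154559407 to 154569892, minus strand, GRCm38). It stood at 21.01, 19.9 and 25.8 CPM in controls 1 to 3 and at 3.82, 3.78 and 1.82 CPM in iKO 1 to 3. Every control was more than 5 times as high as every iKO-labelled library. The fall was 7.05-fold, a log2 fold change of -2.82 ± 0.32 (adjusted p = 9.03e-04).

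E2f3, an activator long tied to S phase entry and made as a longer and a shorter isoform, lies on chromosome 13 (29906575 to 29986063, minus strand). It was at 34.6, 42.7 and 32.7 CPM in controls 1 to 3 and at 17.9, 7.57 and 10.9 CPM in iKO 1 to 3. The groups did not overlap, and iKO 1 stood nearest to the controls. Its fold change was -1.60 ± 0.30 (adjusted p = 0.00882). Counts were made over the whole gene, so the isoforms were not told apart.

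E2f2, an activator with known roles in blood cell precursors, lies on chromosome 4 (136172394 to 136196057, plus strand). Its levels were 29.9, 45.6 and 37.4 CPM in controls 1 to 3 and 27.9, 11.5 and 15.6 CPM in iKO 1 to 3. The groups lay apart, but control 1 and iKO 1 were almost level, and both groups spread widely. At -1.04 ± 0.32 the difference missed the threshold (adjusted p = 0.0574). Without iKO 1 it was called, at -1.48 (adjusted p = 0.0117), and it was also called with DESeq2 (adjusted p = 0.00567) and under 5 other alternatives of 17, with adjusted p from 5.08e-04 to 0.182 over all of them.

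Of the canonical repressors, E2f4 was called lower and E2f5 was not called. E2f4, the most abundant E2F of resting cells, lies on chromosome 8 (105297663 to 105305370, plus strand). It was at 76.5, 79.2 and 80.7 CPM in controls 1 to 3 and at 51.1, 51.9 and 49.4 CPM in iKO 1 to 3. The highest library was 1.06 times the lowest among controls and 1.05 times under the iKO label, so that the small difference of -0.63 ± 0.10 exceeded the spread (adjusted p = 0.00386).

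E2f5, a close relative of E2f4 that also binds pocket proteins, lies on chromosome 3 (14578641 to 14606309, plus strand). It was at 25.3, 27.4 and 28.9 CPM in controls 1 to 3 and at 28.1, 31.9 and 40.2 CPM in iKO 1 to 3. Control 3 lay above iKO 1, so the groups overlapped, and the difference of 0.30 ± 0.17 was not called (adjusted p = 0.278). E2f5 shares 26 exonic bases with 1810022K09Rik on the other strand, which had 1457 to 2183 counts in a library beside 565 to 991 for E2f5. The library kit does not mark strand, so reads from the shared bases cannot be told apart. E2f6, the repressor without a pocket protein site, lies on chromosome 12 (16810963 to 16839742, plus strand). It was at 20.7, 22.3 and 20.7 CPM in controls 1 to 3 and at 20.9, 29.1 and 28.1 CPM in iKO 1 to 3. Here iKO 1 lay among the controls and the other two above them, and the difference of 0.30 ± 0.18 was not called either (adjusted p = 0.297). Neither was called under any of 17 alternatives.

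The atypical repressors were nearly absent from the iKO-labelled libraries. E2f7 lies on chromosome 10 (110745439 to 110787384, plus strand) and E2f8 on chromosome 7 (48866429 to 48881596, minus strand). E2f7 had 259, 311 and 354 counts in controls 1 to 3 and 27, 2 and 5 counts in iKO 1 to 3, or 11.6, 12.0 and 13.6 CPM against 0.946, 0.0682 and 0.203 CPM. Every control held over 12 times the CPM of the highest iKO-labelled library, and the fold change of E2f7 was -4.91 ± 0.75 (adjusted p = 0.00342). Both genes share exonic bases with a gene on the other strand, E2f7 86 bases with 1700020G17Rik and E2f8 610 bases with Gm2788, which had at most 5 and 3 counts in a library.

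E2f8 had 151, 215 and 396 counts in controls 1 to 3 and 40, 0 and 4 counts in iKO 1 to 3. Its controls ran from 6.75 to 15.2 CPM, a 2.25-fold spread, and iKO 1 stood at 1.40 CPM. No count was seen in iKO 2, where 3 counts, the limit that a count of 0 allows, would be 0.102 CPM. The fold change of E2f8 was -4.25 ± 1.11 (adjusted p = 0.031). It lost its call in 5 of 15 alternatives, among them the fits without control 1, 2 or 3 or without iKO 3 (adjusted p up to 0.108). The edgeR fit that pairs libraries by number did not call E2f8 either (adjusted p = 0.0509). For both genes iKO 1 held most of the counts of its group. Without it the fold changes were -6.51 for E2f7 and -6.97 for E2f8, so their size rests on that library while the direction did not turn under any alternative in which they were tested.

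Both DP genes changed, in opposite directions. Tfdp1 lies on chromosome 8 (13338751 to 13378448, plus strand) and Tfdp2 on chromosome 9 (96196275 to 96323646, plus strand). Tfdp1, which encodes DP1, the main partner in most tissues, was at 108, 151 and 118 CPM in controls 1 to 3 and at 47.2, 46.2 and 39.1 CPM in iKO 1 to 3. Every control was more than 2 times as high as any iKO-labelled library, and the fold change was -1.51 ± 0.15 (adjusted p = 5.39e-04). Tfdp2, which encodes DP2, was at 24.7, 33.2 and 31.4 CPM in controls 1 to 3 and at 42.7, 42.7 and 42.3 CPM in iKO 1 to 3. The iKO-labelled libraries were almost level and all above the controls. The rise of Tfdp2 was 0.52 ± 0.15 (adjusted p = 0.0447), close to the threshold. It lost its call in 10 of 17 alternatives, among them each of the 6 libraries left out (adjusted p from 0.0591 to 0.124) and limma on the deposited FPKM. Tfdp2 was also not called in the edgeR fit that pairs libraries by number (adjusted p = 0.0879).

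**Figure D2:**
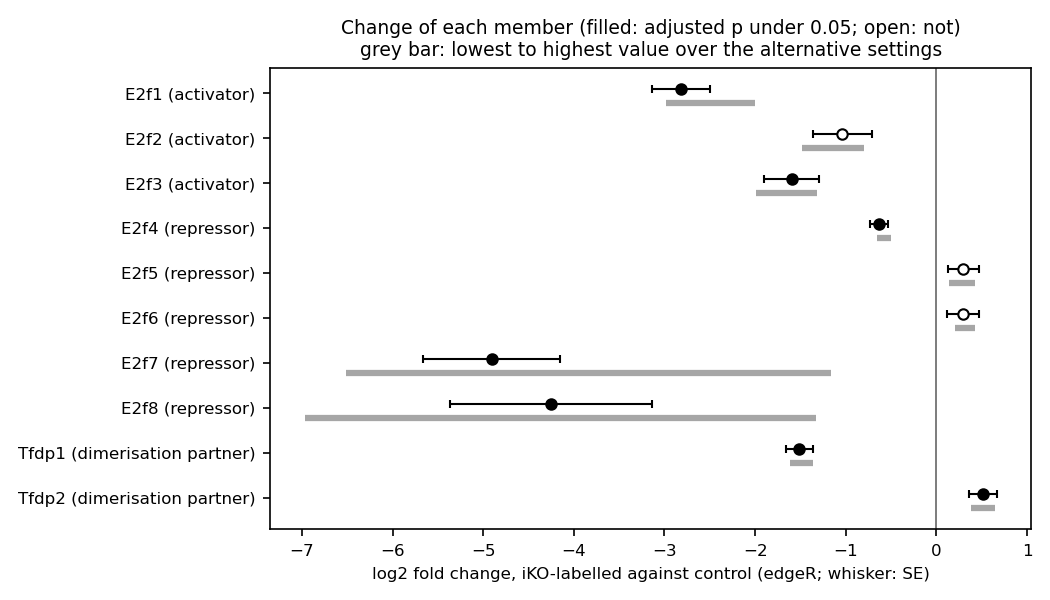
Log2 fold change of each member, iKO-labelled against control (horizontal axis), with the edgeR estimate and its SE as a point with whiskers, filled where adjusted p is under 0.05, and a grey bar from the lowest to the highest value over the alternatives. The bars of E2f7 and E2f8 run from -6.51 to -1.17 and from -6.97 to -1.33, and no bar crosses 0.

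Levels of different genes were compared in FPKM, which divide by gene length. Among controls the order ran from Tfdp1 (72.3 ± 13.3 FPKM) over E2f4 (38.6 ± 1.44) and E2f5 (14.9 ± 1.13) to E2f6, E2f2, E2f3 and E2f1. These last 4 lay between 6.88 and 8.55 FPKM in the mean, and the range of each overlapped that of its neighbour. Tfdp2, E2f8 and E2f7 stood lowest, at 2.07, 1.81 and 1.34 FPKM, again with overlapping ranges. In the iKO-labelled libraries Tfdp1 (25.6 ± 2.58 FPKM) and E2f4 (25.2 ± 0.643) overlapped, followed by E2f5 (18.5 ± 3.42) and E2f6 (10.6 ± 1.82). E2f2, Tfdp2 and E2f3 came next with ranges that overlapped from neighbour to neighbour, then E2f1 at 0.984 ± 0.358 FPKM, and E2f8 and E2f7 were below 0.1 FPKM in the mean. The lengths behind the deposited FPKM equal the merged exons of GENCODE M21 for 6 members, to within 1 base, and are shorter for E2f3, E2f4, E2f6 and Tfdp1. With the M21 lengths E2f6 would stand at 3.65 FPKM in the controls, under the activators. Tfdp1 would stand at 33.5 FPKM there, close to E2f4 at 31.4 FPKM. In the iKO-labelled libraries Tfdp1 would stand at 11.9 FPKM, under E2f4 at 20.4 FPKM and E2f5 at 18.5 FPKM.

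Activators were then set against repressors. The median log2 fold change was -1.60 over E2f1 to E2f3 and -0.63 over E2f4 to E2f8, but the repressors did not form a unit, since they hold both the lowest values of the family (E2f7, E2f8) and the members above 0 (E2f5, E2f6). Summed over E2f1 to E2f3, the level was 19.3, 24.1 and 22.3 FPKM in controls 1 to 3 and 10.5, 5.05 and 5.98 FPKM in iKO 1 to 3. Summed over E2f4 to E2f8 it was 61.4, 65.9 and 68.3 FPKM in controls 1 to 3 and 49.8, 55.2 and 58.2 FPKM in iKO 1 to 3. Neither sum overlapped between the groups, and the activator sum differed more, with means of 21.9 and 7.18 FPKM beside 65.2 and 54.4 FPKM for the repressors. Activators made up 25.1% ± 1.49 of the summed E2F level in the controls but 11.7% ± 4.98 under the iKO label (SD, n = 3 each). The share was 17.4% in iKO 1 and 8.39% and 9.32% in iKO 2 and 3, all below the lowest control at 23.9%.

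**Figure D3:**
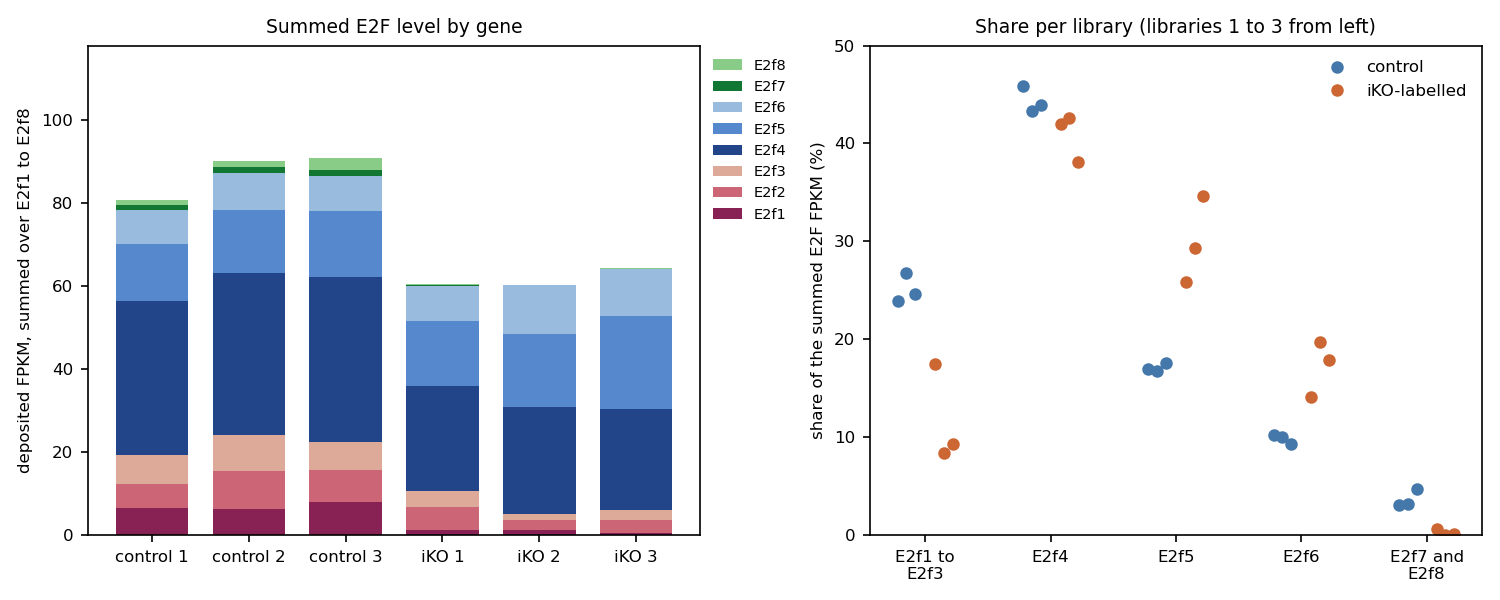
Left, deposited FPKM of E2f1 to E2f8 stacked per library (bars from 0); right, share in percent of that sum for the activators E2f1 to E2f3, for E2f4, E2f5 and E2f6, and for E2f7 with E2f8, each point a library. The activator share is 23.9% to 26.8% in controls but 8.39% to 17.4% under the iKO label, while the shares of E2f5 and E2f6 are higher there.

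By deposited FPKM, what remained in the iKO-labelled libraries was made up mainly of the repressors E2f4, E2f5 and E2f6. E2f4 held 44.4% ± 1.34 of the summed E2F level in controls and 40.9% ± 2.46 under the iKO label. The highest iKO-labelled library, at 42.6%, lay just below the lowest control at 43.3%. With the M21 lengths the E2f4 shares of the groups would overlap. E2f5 went from 17.1% ± 0.429 to 29.9% ± 4.47 and E2f6 from 9.83% ± 0.509 to 17.2% ± 2.83, though the level of neither was called changed. Shares move with the lengths used, that of E2f6 above all. With the M21 lengths E2f6 would stand at 3.65 FPKM in controls and 4.54 FPKM under the iKO label, beside 8.55 and 10.6 FPKM as deposited. Together E2f7 and E2f8 held 3.60% ± 0.918 of the sum in controls and 0.229% ± 0.318 under the iKO label. The ratio of E2f1 to E2f4 was 0.178 ± 0.0219 in controls and 0.0389 ± 0.0135 under the iKO label, and that of E2f5 to E2f4 was 0.385 ± 0.0152 and 0.737 ± 0.154. For the DP genes the ratio of Tfdp1 to Tfdp2 was 35.0 ± 3.38 in controls and 8.57 ± 0.814 under the iKO label. None of these ratios overlapped between the groups. The size of a ratio between 2 genes moves with the lengths used, while the factor by which it differs between the groups does not. These class values are descriptions without a test.

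Within the iKO-labelled group the members did not vary alike. Library iKO 1 held the highest level of its group for 7 of the 10 members, E2f2, E2f3, E2f7 and E2f8 by a clear margin, and the lowest for E2f5 and E2f6. Its median over the E2F target genes of S phase was -2.12 on the log2 scale relative to the control mean, beside -2.26 and -2.40 in iKO 2 and 3. Among controls, library 1 had the lowest level of its group for 7 of the 10 members and a median of -0.22 over the same targets, beside 0.08 and 0.11 in controls 2 and 3. The part of any such difference between libraries in the results was not tested.

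The regulators that act on E2F changed in part. Over all tested genes 12.3% were called lower and 8.15% higher, the background for this list and those that follow. Of 11 pocket proteins and G1 kinases tested, 6 were called lower and 1 higher, with a median of -0.67. Among the pocket proteins, Rbl1, which encodes p107 and is an E2F target itself, fell from 29.6 ± 14.0 to 2.70 ± 0.603 CPM (-3.46 ± 0.38, adjusted p = 7.75e-04). Rb1, the retinoblastoma gene, was at 14.4 ± 2.98 and 18.3 ± 1.59 CPM (adjusted p = 0.30), and Rbl2, which encodes the p130 of resting cells, at 22.1 ± 3.99 and 18.0 ± 1.37 CPM (adjusted p = 0.329), so neither was called. The E cyclins, which free E2F by way of Cdk2, fell as well, Ccne1 at -3.53 ± 0.22 and Ccne2 at -1.86 ± 0.24, and so did Cdk2 at -1.29 ± 0.17. The gene called higher was Ccnd1, the cyclin that starts the release of E2F, at 1.05 ± 0.14 (adjusted p = 0.00187).

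The MuvB core joins E2F4 and p130 at the promoters of resting cells, or B-Myb and FoxM1 at mitotic ones. Of 8 genes of the MuvB core and its partners tested, 4 were called lower and 1 higher. The median of this list was -0.42. Mybl2 (B-Myb) had a log2 fold change of -6.31 ± 0.47 and Foxm1 of -3.74 ± 0.43, while the core subunits Rbbp4 (-0.65 ± 0.09) and Lin54 (-0.85 ± 0.16) fell less. Mybl1 (A-Myb) was higher (0.90 ± 0.23, adjusted p = 0.0264), a call that ended under 7 of 17 alternatives, among them each library left out but iKO 1 (adjusted p up to 0.102). Of 10 partners of E2F6 in its Polycomb complex tested, 7 were not called, such as Rnf2, the ubiquitin ligase of the complex (-0.16 ± 0.09, adjusted p = 0.299). The median of these partners was -0.03, beside 0.02 over all tested genes. Mga, the scaffold that joins E2F6 to the complex, was higher (1.07 ± 0.12), Cbx3, a reader of silent chromatin, lower (-1.08 ± 0.15), and L3mbtl2, which compacts chromatin, lower too (-0.55 ± 0.14). The call of L3mbtl2 ended under 8 of 17 alternatives, among them each library left out but control 2 (adjusted p up to 0.0933).

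Of 13 genes of E2F turnover and cofactors tested, 4 were called lower, 1 higher and 8 not. Their median was -0.07, beside 0.02 over all tested genes. Cks1b, the adaptor of the ubiquitin ligase subunit Skp2, had a log2 fold change of -2.24 ± 0.18. Fbxo5, an inhibitor of the anaphase-promoting complex, was at -2.40 ± 0.36, and Fzr1, the Cdh1 subunit of that complex, at -1.09 ± 0.17. Ccnf, the cyclin F that marks E2F proteins for destruction, was at 20.5 ± 3.88 and 10.8 ± 4.79 CPM, which missed the threshold (adjusted p = 0.0781) though it passed under 6 of 17 alternatives. Ndn, the growth-restraining protein necdin that binds E2F1, rose from 15.01 ± 1.58 to 30.1 ± 5.09 CPM (adjusted p = 0.00781).

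Target genes of E2F in S phase were lower almost throughout. The list held 36 tested genes, of which 35 were called lower and 0 higher, and its median was -2.31 beside 0.02 over all tested genes. Cdc6, the loader of the replicative helicase, had the lowest value at -5.33 ± 0.27. The helicase subunit Mcm4 (-2.31 ± 0.08), the DNA methylation cofactor Uhrf1 (-3.67 ± 0.17) and the ribonucleotide reductase subunit Rrm2 (-2.97 ± 0.14) had the smallest adjusted p beside it. Cyclin A (Ccna2), whose kinase partner ends E2F1 binding to DNA in S phase, fell from 52.4 ± 11.1 to 1.68 ± 1.14 CPM. The target not called was Cdc25a, the phosphatase that activates Cdk2, at 33.0 ± 2.69 and 31.4 ± 5.03 CPM (adjusted p = 0.81), singled out after its value was seen. The targets were chosen with earlier results on cell cycle genes of these data known.

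Genes of apoptosis that E2F1 can switch on lay on both sides of 0. Of 14 listed, 11 were tested, of which 4 were called higher and 1 lower, with a median of 0.00 on the log2 scale. The risers were Pmaip1 (1.92 ± 0.14) and Bbc3 (0.96 ± 0.27), which trigger mitochondrial death, Apaf1, the core of the apoptosome (1.76 ± 0.25), and Trp53inp1 (1.10 ± 0.23). Each is also a known target of p53. The call of Bbc3 (adjusted p = 0.0412) is close to the threshold and ended under 6 of 17 alternatives, among them each library left out but control 2 and iKO 2 (adjusted p up to 0.135). That of Trp53inp1 ended in limma on unfiltered FPKM (adjusted p = 0.0504).

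**Figure D4:**
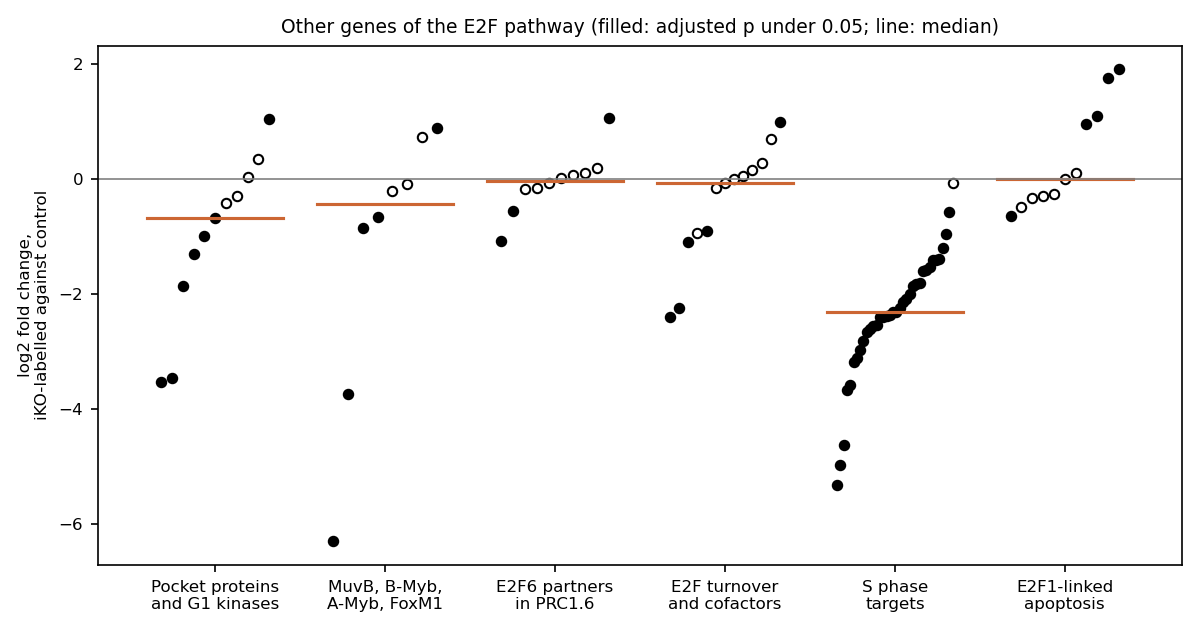
Log2 fold change, iKO-labelled against control (vertical axis), of every tested gene in 6 lists of the E2F pathway; points are genes, filled where adjusted p is under 0.05, and the line is the list's median. The S phase targets lie below 0 with 35 of 36 filled, and the apoptosis genes lie on both sides with a median of 0.00.

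The 6 libraries share 2 groups, so the group difference sets most of any correlation over them. The genes whose levels followed single members most closely were read from the correlation of log2(CPM + 0.5), with predicted gene models left out. For E2f1 these were Fam19a5 (Pearson r = 0.999), Impdh2 (0.999) and Arhgap28 (0.998). For E2f4 they were Uhrf1 (0.999), Rangap1 (0.999) and Lig1 (0.999), and Uhrf1 changed by -3.67 where E2f4 changed by -0.63, so a like pattern did not mean a like size. For E2f8 they were Spcs2, Faf1 and H2afy (0.997 or above), though the added 0.5 CPM exceeds the level of E2f8 in iKO 2 and 3.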

How the data were processed

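Poly(A)-primed Smart-Seq2 libraries, which do not mark strand, were made from sorted cells, per the labels' protocols. Read counts per gene were deposited by the authors, together with FPKM for the same genes. Named in the submitters' processing notes are STAR, Trim Galore, Subread with featureCounts, DESeq2 and the mm10 build; the sources used here give no annotation release and no rule for multiply mapped reads. The deposited FPKM are scaled by median-of-ratios size factors (counts and FPKM matched to a relative 9.3e-15 over 11939 genes).

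The 551 rows without a gene name (0.108% to 0.123% of counts) were left out. Counts were fitted in edgeR 4.0.16 (R 4.3.3; filterByExpr, minimum count 10, minimum total 15; TMM; group as the only term), and p-values were adjusted over 16252 genes. CPM use TMM-scaled library sizes. Alternatives were DESeq2 1.42.0, limma 3.58.1 (voom, and log2 of FPKM plus 1 or 0.1, with and without a mean FPKM of at least 1), RLE, upper-quartile and library-total scaling, no count filter, at least 5 CPM in 3 libraries, a replicate block and each library left out; GENCODE M21 gene lengths were added after seeing the data. Positions are from GENCODE M21 (GRCm38) and promoters from RefSeq.

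The members, pathway lists and markers were chosen with earlier results of these data known. Named are all members, the 4 genes of each list with the smallest adjusted p, called genes against a list's majority, Rb1, Rbl1, Rbl2, Ccne1, Ccne2, Ccna2, Ccnf, Mybl2 and the 3 genes most correlated with E2f1, E2f4 and E2f8. Predicted gene models (Gm, Rik and clone accession names) were left out of the correlations. The limit given for a count of 0 covers counting error only. A gene that this rule takes is not reported here.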

Additional observations from a re-analysis of the deposited data

How the results depend on the processing

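Over 17 alternatives (15 for E2f7 and E2f8, which fell below a mean FPKM of 1) no member changed direction, and E2f1, E2f3, E2f4, E2f7 and Tfdp1 stayed called throughout. E2f2 became called with DESeq2 (-1.02), limma-voom (-1.13), no count filter (-1.03), at least 5 CPM in 3 libraries (-0.97), and filtered log2 FPKM plus 1 (-0.90) or plus 0.1 (-1.08), and ran from -1.48 to -0.79 with a library left out. The call of Tfdp2 was lost in limma on FPKM (0.38 with pseudocount 1, filtered or not, and 0.52 with 0.1), and it ran from 0.40 to 0.60 with a library left out. E2f8 ran from -6.97 to -3.66 with a library left out. On log2(FPKM + 1), which shrinks low genes, E2f7 was -1.17 and E2f8 -1.33.

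With the replicate block, E2f8 was -5.19 (adjusted p = 0.0509) and Tfdp2 0.53 (adjusted p = 0.0879), neither called, and 813 genes were called higher against 1324 without it. Same-numbered libraries did not deviate together (r = -0.09, -0.01 and -0.06), and none correlated best with its own number. Such small values cannot show whether the numbers mark the pairs of mice that the design text mentions. No label says so, and the block was kept as an alternative.

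Genes called higher numbered 2081 with DESeq2 and 706 to 1159 with a library left out, 706, 732 and 845 of them without iKO 2, 3 and 1. Scaling by library totals moved the median of all genes from 0.02 to 0.16 and the share of calls that were higher from 39.9% to 57.2% (49.6% with upper-quartile factors). List counts moved as follows. MuvB partners called higher were 2 with DESeq2 and library totals, 0 with the block and 0 to 1 with a library left out. E2F6 partners called lower were 1 with library totals and the block, and 1 to 2 with a library left out. Turnover genes called higher were 2 with DESeq2 and library totals. Apoptosis genes called lower were 0 with library totals and the block, and 0 to 1 with a library left out. Cdc25a, never called, turned to 0.0054 with upper-quartile factors and 0.0594 with library totals, and ran from -0.212 to 0.0114 (without iKO 2) with a library left out. The log2 activator to repressor ratio, control over iKO-labelled, was 1.41, and 1.17 to 1.80 over its alternatives. For moves that fewer libraries or tested genes do not account for, the cause was not tested. With counts of 0 to 40 in the iKO-labelled libraries, depth limits the fold size of E2f7 and E2f8.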
